A study of Homo sapiens with 6 samples.

Results

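The subunits of the Mediator complex were followed in the lung adenocarcinoma cell line A549 after transfection with ncRNA-a7 siRNA, Snai1 siRNA or control siRNA. The members were 33 named genes, taken by gene symbol from the platform annotation: the head, middle, tail and scaffold subunits of the core complex and the subunits of its kinase module. Of these, 31 had at least 1 probe, 49 probes in all, out of 18833 named genes and 48701 probes. No probe was found here under the symbols MED6 and MED25, so these 2 subunits were not analysed. The 20644 probes without a symbol were not searched for them. Each of the 3 groups held 2 single-colour Illumina bead arrays, 6 in all, of total RNA from cells grown in DMEM with serum. All cells were transfected, those of the control included, and the labels name no dose, time, siRNA sequence or separate cultures. P-values therefore rest on the spread of arrays within a group, which may be technical, and 2 arrays a group limit how precise any value is.

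Mediator is the large coactivator that carries signals from DNA-bound transcription factors and enhancers to RNA polymerase II at promoters. Its head and middle modules touch the polymerase, MED14 runs through the complex as its scaffold, and the tail is the main landing place for activators. A detachable kinase module of CDK8 or CDK19, cyclin C, MED12 or MED12L and MED13 or MED13L binds the core and controls its contact with the polymerase. ncRNA-a7 is a long noncoding RNA of the activating class, transcribed near SNAI1, and activating RNAs of this class are known to associate with Mediator through MED12. SNAI1 is a zinc finger repressor of epithelial genes. The comparisons address which subunit transcripts differ with either siRNA and between them.

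The arrays gave no check of the targets, since the SNAI1 and TRERNA1 (ncRNA-a7) probes lay at percentiles 3.95 to 48.0 of each array, below the filter. The TRERNA1 probe read 130 and 132 under ncRNA-a7 siRNA, against 118 and 118 under control siRNA, and the SNAI1 probe read 127 and 127 under Snai1 siRNA, against 143 and 144 under control siRNA. The deposited mean intensity per array ran from 715 to 914. Snai1 siRNA replicate 2 was the dimmest, at 715 beside 902 for replicate 1. Values that a probe or gene is said to read are deposited signals, not corrected for such differences between arrays. Normalized log2 values correlated across features at 0.994 to 0.996 within groups and 0.988 to 0.991 between groups. The epithelial keratin KRT8 lay at percentiles 98.9 to 99.5 of the deposited signals and CDH1, which encodes E-cadherin, at 94.5 to 97.0. The summed signal of 5 epithelial markers was 23197 to 25547 under ncRNA-a7 siRNA, 21050 to 26223 under Snai1 siRNA and 17772 to 20925 under control siRNA. CDH1 was 1.65-fold higher and EPCAM 3.12-fold lower under ncRNA-a7 siRNA, and CDH1 was 1.72-fold higher and EPCAM 2.18-fold lower under Snai1 siRNA (limma adjusted p from 0.000103 to 0.00194). KRT8 was 1.41-fold higher and KRT18 1.34-fold lower under ncRNA-a7 siRNA (limma adjusted p = 0.0402 and 0.0448), calls that held in 8 of 16 and 3 of 15 alternative settings. The KRT18 probe was dim, at signals of 180 to 227 and percentiles 65.3 to 72.2. Of 5 leukocyte markers 4 had a probe, with PTPRC and CD3E at percentiles 15.4 to 58.2 and ITGAM at 60.1 to 73.2. The summed signal of these 4 was 917 to 949 under ncRNA-a7 siRNA, 810 to 1000 under Snai1 siRNA and 657 to 667 under control siRNA. CD14 was 2.01-fold and ITGAM 1.74-fold higher under ncRNA-a7 siRNA, and CD14 was 2.22-fold higher under Snai1 siRNA (limma adjusted p from 0.000266 to 0.00126). The part of this shift in the Mediator values was not tested. The summed signal of 5 endothelial markers was 732 to 824 under ncRNA-a7 siRNA, 723 to 768 under Snai1 siRNA and 759 to 800 under control siRNA. That of 5 fibroblast markers was 733 to 742 under ncRNA-a7 siRNA, 719 to 749 under Snai1 siRNA and 684 to 724 under control siRNA, and COL1A1 was 1.45-fold higher under Snai1 siRNA than with control (limma adjusted p = 0.0193), a call that held in 10 of 15 alternatives and was lost without Snai1 siRNA replicate 2 or either control array. The COL1A1 probe was dim as well, at percentiles 57.4 to 71.4. The part of these markers in the results was not tested either.

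Of the 31 subunits with a probe, 28 had a probe above the median of all probes and entered the test, each through its brightest probe. MED12L (kinase module), MED18 (head) and MED31 (middle) did not. The 7 member probes below the filter read 104 to 162, at percentiles 0.244 to 57.8 of their arrays, and the 28 tested probes read 139 to 4615. The gap between replicates of a group had a median over subunits of 0.10 log2 units under ncRNA-a7 siRNA, 0.08 under Snai1 siRNA and 0.10 under control siRNA. The largest gap was 0.58, for MED17 under Snai1 siRNA, whose probe held the lowest signal of the 28, 139.

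A subunit was called where its limma p-value, adjusted by Benjamini-Hochberg over 19730 features, was under 0.05. With ncRNA-a7 siRNA 2 of the 28 tested subunits fell and 0 rose against control, MED30 and MED9, which is 7.14% beside 9.94% of all features (5.78% higher and 4.16% lower). With Snai1 siRNA 2 fell and 0 rose against control, CCNC and MED9, again 7.14%, beside 9.16% of all features (4.88% higher and 4.28% lower). Between the siRNAs 3 of 28 subunits differed, or 10.7%, beside 8.11% of all features (4.74% higher and 3.38% lower): CCNC and MED29 were higher and MED30 lower under ncRNA-a7 siRNA than under Snai1 siRNA. In this setting the share of subunits called was close to that of all features, and it was not in every other one. Under ncRNA-a7 siRNA against control, 25% of subunits were called without background correction, beside 14.6% of all features, and 21.4% with the authors' scaled values, beside 11.9%. The share was 3.57% with an offset of 16, beside 5.16%, with median scaling, beside 4.67%, and with no filter, beside 2.08%. In all, 4 subunits were called in at least 1 comparison and 24 in none. At an unadjusted limma p under 0.05 there were 10 of 28 under ncRNA-a7 siRNA against control, 8 of 28 under Snai1 siRNA against control and 10 of 28 between the siRNAs. Of all features 24.3%, 23.2% and 23.2% reached this, in each comparison a smaller share than of the subunits and not matched for signal. In whole cell RNA, fewer cells holding a transcript and less of it per cell cannot be told apart.

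Below the level of single calls, most subunits lay under 0. With ncRNA-a7 siRNA 21 of 28 were below control (75%, beside 52.3% of all features), and their median log2 difference was -0.21, beside -0.01 over all features. With Snai1 siRNA 18 of 28 were below control (64.3%, beside 51.4%), with a median of -0.10 beside -0.01. Between the siRNAs 20 of 28 were lower under ncRNA-a7 siRNA (71.4%, beside 51.0%), with a median of -0.11 beside -0.01. Arrays of the compared groups did not overlap for 24 of 28 subunits under ncRNA-a7 siRNA (85.7%, beside 52.0% of all features), 18 of 28 under Snai1 siRNA (64.3%, beside 53.4%) and 22 of 28 between the siRNAs (78.6%, beside 50.9%). These shares of all features were not matched for signal. Of the 28 subunits 24 had a probe above the 75th percentile. Among such probes 28.3% of features were called under ncRNA-a7 siRNA against control, beside 9.94% in the main fit. Under the alternative settings the median over subunits lay between -0.28 and -0.17 under ncRNA-a7 siRNA and between -0.19 and -0.07 under Snai1 siRNA. Both comparisons share the control arrays, so their values are not independent. The downward lean under ncRNA-a7 siRNA was not particular to Mediator. Below control there were 11 of 12 tested RNA polymerase II subunits, 16 of 18 general transcription factors and 11 of 14 TFIID subunits. So were 16 of 20 pausing and elongation factors and 5 of 9 cohesin and loader genes. Under Snai1 siRNA these counts were 3, 13, 9, 12 and 4 in the same order.

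**Figure D1:**
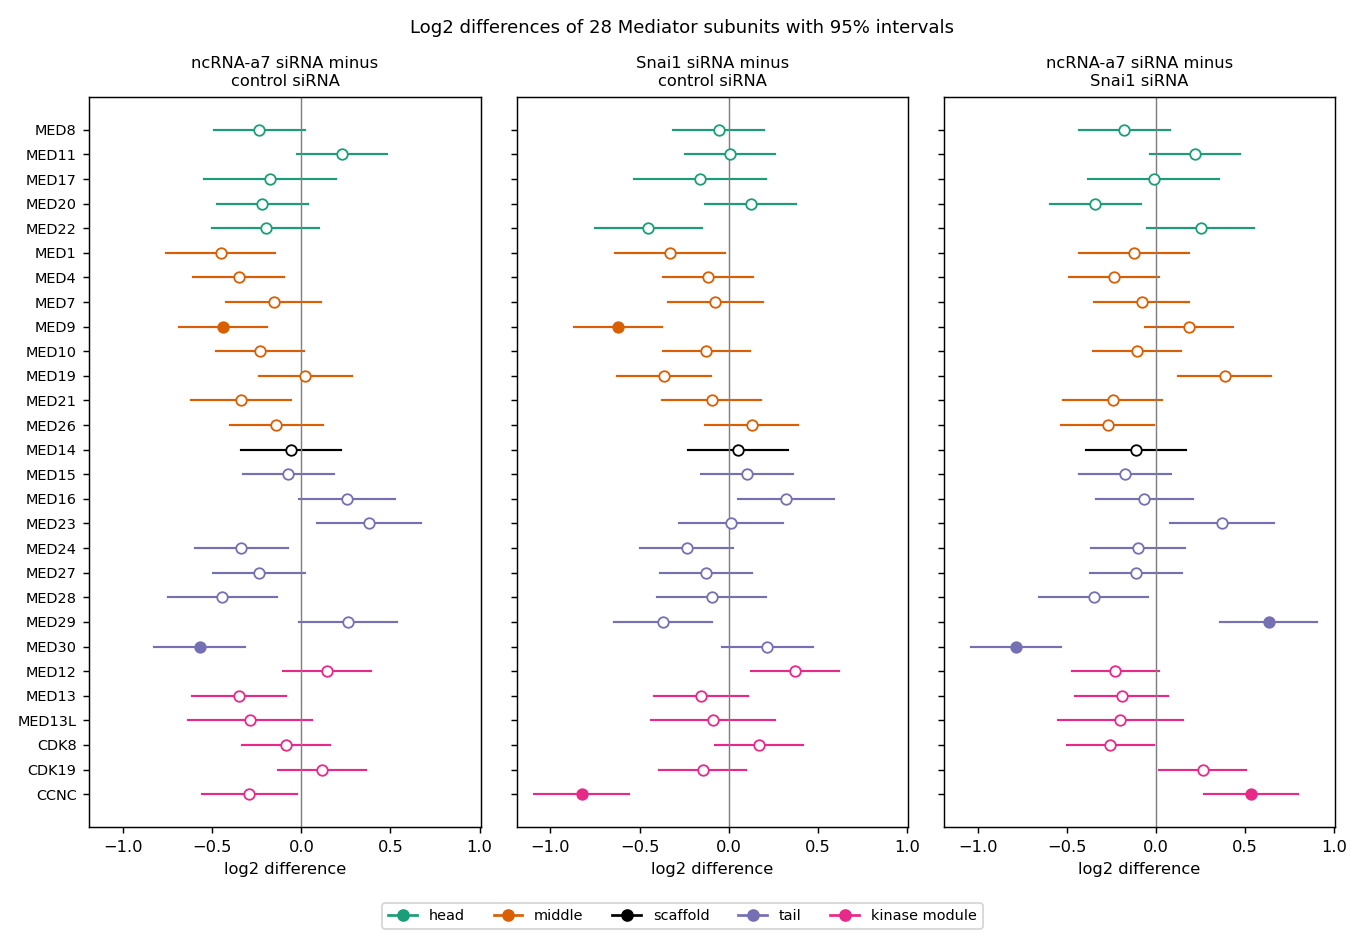
Log2 differences of the 28 tested Mediator subunits (x axis, log2 units) with 95% intervals from limma, in order of module (y axis), for ncRNA-a7 siRNA minus control, Snai1 siRNA minus control and ncRNA-a7 siRNA minus Snai1 siRNA. Filled points passed the test: MED9 and MED30 in the left panel, MED9 and CCNC in the middle one, and MED29, MED30 and CCNC in the right one.

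The kinase module held the largest difference of any subunit from control. CCNC, which encodes cyclin C, the partner that activates CDK8 and CDK19, fell to deposited signals of 1529 and 1287 under Snai1 siRNA, against 2523 and 2784 under control siRNA, and read 2140 and 1974 under ncRNA-a7 siRNA. After normalization its log2 signal was 10.34 and 10.56 under Snai1 siRNA, against 11.32 and 11.23 under control siRNA. The groups did not overlap, and the gap between them was wider than that within either. CCNC was 1.77-fold lower under Snai1 siRNA than with control (-0.82 ± 0.12 log2 units, limma SE, 2 arrays a group, adjusted p = 0.00168 by limma). The call held under all 16 alternative settings run (log2 difference from -0.93 to -0.72).

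CCNC had 3 probes, and each was lower under Snai1 siRNA. The first read 1324 and 1026 under Snai1 siRNA, against 1892 and 2728 under control siRNA, and the second 658 and 499 under Snai1 siRNA, against 860 and 1018 under control siRNA. In a limma fit over all 48701 probes their log2 differences were -0.88 ± 0.14 SE (adjusted p = 0.00735) and -0.65 ± 0.15 (adjusted p = 0.0416), beside -0.82 ± 0.14 (adjusted p = 0.00935) for the brightest. These 3 probes measure 1 gene in the same RNA and are not replicates of the condition.

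With ncRNA-a7 siRNA the log2 signals of CCNC, at 11.02 and 10.94, lay between those of the other groups. CCNC differed from control by -0.29 (95% interval -0.56 to -0.03, limma adjusted p = 0.162), which did not pass. Against Snai1 siRNA it was 1.45-fold higher under ncRNA-a7 siRNA (0.53 ± 0.12 log2 units, limma SE, 2 arrays a group, adjusted p = 0.0218 by limma). This difference no longer passed with an offset of 16, median scaling, no filter or the mean of the probes, nor without either Snai1 siRNA array or either ncRNA-a7 siRNA array. The highest adjusted p, 0.137, came without Snai1 siRNA replicate 1 (log2 difference 0.43).

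The other subunits of the kinase module were not called in any comparison. CDK8, the cyclin-dependent kinase of the module, read 460 and 439 under ncRNA-a7 siRNA, 590 and 433 under Snai1 siRNA and 454 and 519 under control siRNA. Its log2 difference from control was -0.09 (95% interval -0.33 to 0.16) under ncRNA-a7 siRNA and 0.17 (-0.07 to 0.42) under Snai1 siRNA. CDK19, its paralog, read 1090 and 1090 under ncRNA-a7 siRNA, 1063 and 745 under Snai1 siRNA and 942 and 1164 under control siRNA. Its difference from control was 0.12 (-0.13 to 0.36) under ncRNA-a7 siRNA and -0.15 (-0.39 to 0.10) under Snai1 siRNA. For either kinase the intervals leave out a change of 1 log2 unit, that is 2-fold, in either direction.

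MED12, which activates the kinase and is the subunit reported to bind activating RNAs, read 491 and 512 under ncRNA-a7 siRNA, 625 and 490 under Snai1 siRNA and 444 and 495 under control siRNA. On the normalized log2 scale these were 8.76 and 8.84 under ncRNA-a7 siRNA, 9.01 and 9.05 under Snai1 siRNA and 8.70 and 8.62 under control siRNA, so that the 3 groups did not overlap. MED12 differed from control by 0.37 (95% interval 0.13 to 0.62, limma adjusted p = 0.0627) under Snai1 siRNA and by 0.14 (-0.10 to 0.39, adjusted p = 0.487) under ncRNA-a7 siRNA. The first of these passed without background correction, over the probes above the 75th percentile and with a trended and robust variance prior (adjusted p from 0.0147 to 0.0309).

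MED13, which joins the kinase module to the core, read 278 and 286 under ncRNA-a7 siRNA, 344 and 270 under Snai1 siRNA and 308 and 404 under control siRNA. MED13 differed from control by -0.35 (95% interval -0.61 to -0.09, limma adjusted p = 0.0939) under ncRNA-a7 siRNA and by -0.15 (-0.42 to 0.11) under Snai1 siRNA. The first passed over the probes above the 75th percentile (adjusted p = 0.0273). A second MED13 probe, dim at 141 to 167, differed from control by -0.09 under ncRNA-a7 siRNA and -0.12 under Snai1 siRNA.

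MED13L, the paralog of MED13, read 616 and 471 under ncRNA-a7 siRNA, 757 and 454 under Snai1 siRNA and 583 and 759 under control siRNA, with wide gaps inside the groups. MED13L differed from control by -0.29 (95% interval -0.64 to 0.06) under ncRNA-a7 siRNA and by -0.09 (-0.44 to 0.26) under Snai1 siRNA. MED12L, the paralog of MED12, read 153 and 123 under ncRNA-a7 siRNA, 128 and 111 under Snai1 siRNA and 115 and 134 under control siRNA, in the dim range where no change can be read.

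**Figure D2:**
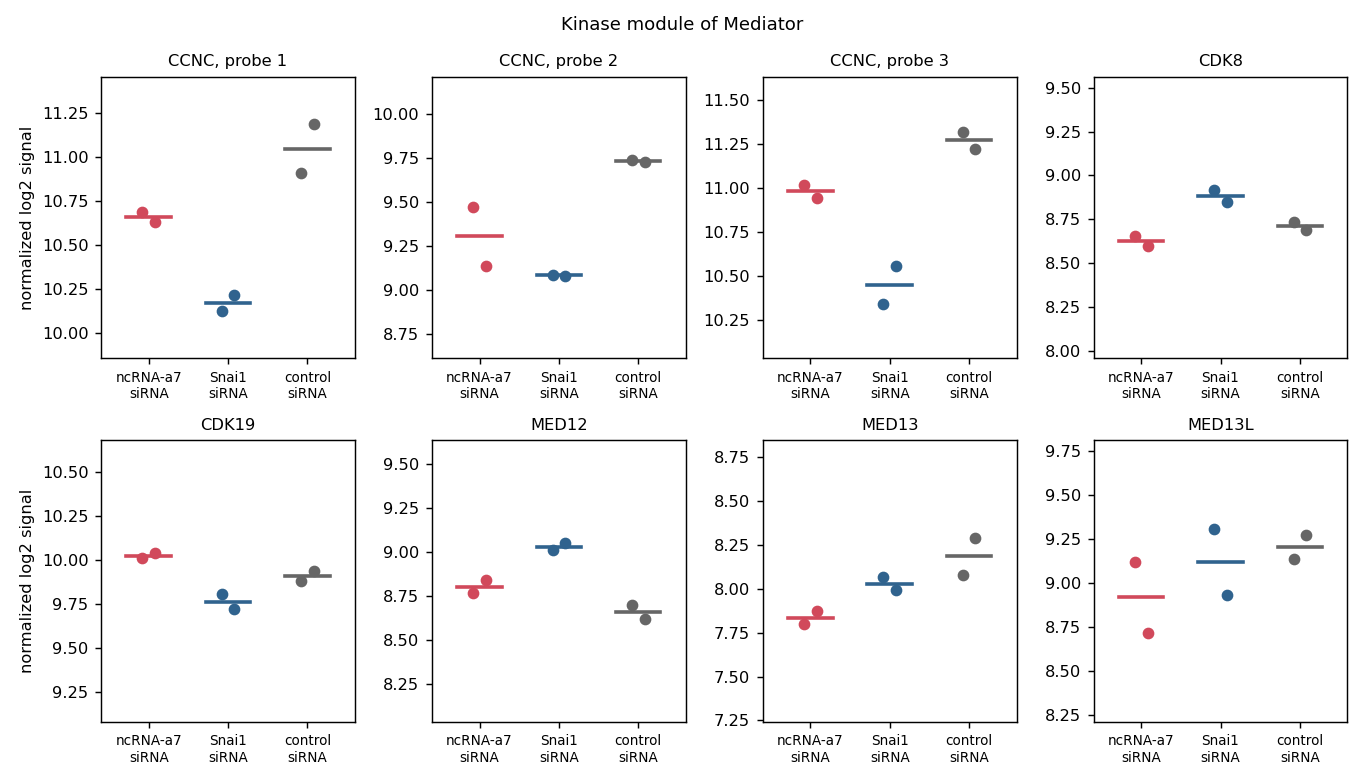
Normalized log2 signal (y axis, log2 units; each panel spans 1.6 units) of the 3 CCNC probes and of CDK8, CDK19, MED12, MED13 and MED13L by group (x axis). Points are arrays and bars group means; probe 3 of CCNC represented the gene in the test. All 3 CCNC probes were lowest under Snai1 siRNA, and MED12 was highest there.

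In the middle module MED9, a small core subunit, was lower with both siRNAs than with control. It read 538 and 514 under ncRNA-a7 siRNA, 525 and 388 under Snai1 siRNA and 668 and 761 under control siRNA. Its normalized log2 signals were 8.91 and 8.85 under ncRNA-a7 siRNA, 8.73 and 8.65 under Snai1 siRNA and 9.35 and 9.28 under control siRNA, so neither siRNA group overlapped the controls. MED9 fell 1.35-fold under ncRNA-a7 siRNA (-0.44 ± 0.11 log2 units, limma SE, 2 arrays a group, adjusted p = 0.0319 by limma). It fell 1.54-fold under Snai1 siRNA (-0.62 ± 0.11 log2 units, limma SE, 2 arrays a group, adjusted p = 0.00553 by limma). Its difference between the siRNAs was 0.18 (95% interval -0.06 to 0.43).

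The MED9 call under Snai1 siRNA was lost without Snai1 siRNA replicate 2 (log2 difference -0.58, limma adjusted p = 0.0536) or control siRNA replicate 1 (-0.59, adjusted p = 0.0682). With ncRNA-a7 siRNA it was lost without either control array or either ncRNA-a7 siRNA array (log2 difference from -0.47 to -0.40, adjusted p from 0.0777 to 0.191), and with an offset of 16, median scaling or no filter.

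MED1, the middle subunit that nuclear receptors bind, read 671 and 754 under ncRNA-a7 siRNA, 757 and 716 under Snai1 siRNA and 926 and 1045 under control siRNA. MED1 differed from control by -0.45 (95% interval -0.76 to -0.15, limma adjusted p = 0.0652) under ncRNA-a7 siRNA and by -0.33 (-0.64 to -0.02, adjusted p = 0.183) under Snai1 siRNA. With ncRNA-a7 siRNA it passed without background correction, with the authors' scaled values, over the probes above the 75th percentile, with a trended prior, and without either Snai1 siRNA array (adjusted p from 0.0159 to 0.0494). Of the other tested middle subunits, MED4, MED7, MED10, MED19, MED21 and MED26, none was called. Their log2 differences ran from -0.35 (MED4) to 0.02 (MED19) under ncRNA-a7 siRNA and from -0.36 (MED19) to 0.13 (MED26) under Snai1 siRNA. MED26 is the subunit that recruits elongation factors, and MED19 differed between the siRNAs by 0.38 (95% interval 0.12 to 0.65, limma adjusted p = 0.0724). MED19 passed there without background correction, with the authors' scaled values, above the 75th percentile and with a trended prior (adjusted p from 0.0186 to 0.0408), and against control under Snai1 siRNA in these except the authors' values (0.023 to 0.0312). Under ncRNA-a7 siRNA MED4 passed in the same 4 settings (adjusted p from 0.0222 to 0.0372) and MED21 (-0.34) above the 75th percentile (0.0416).

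In the tail, MED30 and MED29 differed between the siRNAs in opposite directions. MED30, described in animals and not in budding yeast, read 999 and 1025 under ncRNA-a7 siRNA, 2015 and 1359 under Snai1 siRNA and 1353 and 1758 under control siRNA. Its normalized log2 signals were 9.87 and 9.94 under ncRNA-a7 siRNA, 10.75 and 10.64 under Snai1 siRNA and 10.42 and 10.54 under control siRNA. The ncRNA-a7 siRNA arrays were the lowest, and no groups overlapped. MED30 fell 1.48-fold under ncRNA-a7 siRNA against control (-0.57 ± 0.12 log2 units, limma SE, 2 arrays a group, adjusted p = 0.00996 by limma). It was 1.72-fold lower than under Snai1 siRNA (-0.79 ± 0.12 log2 units, limma SE, 2 arrays a group, adjusted p = 0.00259 by limma). The difference of Snai1 siRNA from control was 0.22 (95% interval -0.04 to 0.47).

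The call of MED30 between the siRNAs held under all 16 alternative settings run (log2 difference from -0.84 to -0.73). Its call against control was lost without control siRNA replicate 1 (log2 difference -0.63, limma adjusted p = 0.0526), control siRNA replicate 2 (-0.51, adjusted p = 0.103) or ncRNA-a7 siRNA replicate 1 (-0.53, adjusted p = 0.0569). MED30 had 1 probe, so no other probe bears on it.

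MED29, the human counterpart of Drosophila Intersex, read 1376 and 1148 under ncRNA-a7 siRNA, 894 and 721 under Snai1 siRNA and 978 and 1233 under control siRNA. Its normalized log2 signals were 10.37 and 10.12 under ncRNA-a7 siRNA, 9.55 and 9.67 under Snai1 siRNA and 9.94 and 10.02 under control siRNA, with the controls between the siRNA groups. MED29 was 1.55-fold higher under ncRNA-a7 siRNA than under Snai1 siRNA (0.63 ± 0.13 log2 units, limma SE, 2 arrays a group, adjusted p = 0.0117 by limma). Against control neither difference passed: 0.26 (95% interval -0.01 to 0.54) under ncRNA-a7 siRNA and -0.37 (-0.64 to -0.09, adjusted p = 0.0944) under Snai1 siRNA, which passed without background correction, above the 75th percentile and with a trended prior (adjusted p from 0.028 to 0.0366). The call between the siRNAs was lost without Snai1 siRNA replicate 1 (log2 difference 0.57, adjusted p = 0.0767), Snai1 siRNA replicate 2 (0.69, adjusted p = 0.0533) or ncRNA-a7 siRNA replicate 1 (0.50, adjusted p = 0.0817), and with an offset of 16 or no filter.

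**Figure D3:**
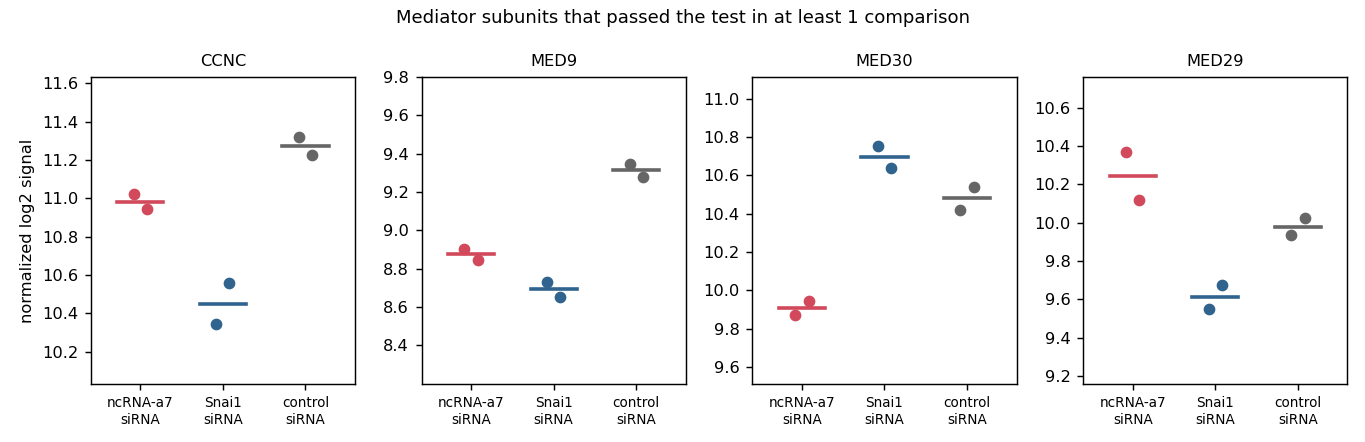
Normalized log2 signal (y axis, log2 units; each panel spans 1.6 units) of CCNC, MED9, MED30 and MED29 by group (x axis). Points are arrays and bars group means. CCNC and MED29 were lowest under Snai1 siRNA, MED30 was lowest under ncRNA-a7 siRNA, and MED9 was lower in both than in the controls.

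The remaining tested tail subunits, MED15, MED16, MED23, MED24, MED27 and MED28, were not called. With ncRNA-a7 siRNA they ran from -0.45 for MED28 (95% interval -0.75 to -0.14, limma adjusted p = 0.068) to 0.38 for MED23 (0.09 to 0.67, adjusted p = 0.0975), the subunit that binds activators such as ELK1. MED28 passed without background correction, with the authors' scaled values, above the 75th percentile and with a trended prior (adjusted p from 0.0137 to 0.0194), and without ncRNA-a7 siRNA replicate 1 (log2 difference -0.62, adjusted p = 0.0441). MED23 passed in the same 4 settings (adjusted p from 0.0307 to 0.0402), and MED24 (-0.34) in these except the authors' values (0.0323 to 0.0451). With Snai1 siRNA they ran from -0.24 for MED24 to 0.32 for MED16 (0.05 to 0.59, limma adjusted p = 0.14), which passed above the 75th percentile (adjusted p = 0.0476). A second MED16 probe, reading 586 to 862, differed by 0.28 under Snai1 siRNA without overlap. The dimmest of its 3 probes, at 157 to 185, differed by -0.12. MED15, the tail subunit bound by SREBP factors, differed from control by -0.07 under ncRNA-a7 siRNA and 0.10 under Snai1 siRNA. The 3 MED23 probes above the filter did not move alike: under ncRNA-a7 siRNA their log2 differences were 0.38, 0.09 and 0.02. Of these the probe at 0.09 was dim, reading 141 to 172, while that at 0.02 read 414 to 616. The 2 MED24 probes differed by -0.34 and -0.38 under ncRNA-a7 siRNA.

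MED14, the scaffold, read 341 and 350 under ncRNA-a7 siRNA, 397 and 318 under Snai1 siRNA and 310 and 435 under control siRNA on its brightest probe. MED14 differed from control by -0.06 (95% interval -0.34 to 0.22) under ncRNA-a7 siRNA and 0.05 (-0.23 to 0.34) under Snai1 siRNA, and the arrays of either siRNA overlapped those of control. Of its 5 probes 3 lay below the filter. The other probe above it differed from control by 0.40 ± 0.13 SE under ncRNA-a7 siRNA in the fit over all probes (limma adjusted p = 0.194). The 2 probes of MED14 thus differ in direction, but this one was dim, at 140 to 177 and percentiles 32.3 to 63.8.

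No head subunit was called in any comparison. MED22 read 1806 and 1557 under ncRNA-a7 siRNA, 1776 and 1076 under Snai1 siRNA and 1720 and 2344 under control siRNA. It differed from control by -0.20 (95% interval -0.50 to 0.10) under ncRNA-a7 siRNA and by -0.45 (-0.75 to -0.15, limma adjusted p = 0.0628) under Snai1 siRNA. That value passed without background correction, with the authors' scaled values, over the probes above the 75th percentile and with a trended prior (adjusted p from 0.0112 to 0.0171), while a second, dimmer MED22 probe differed by -0.17. MED20, whose yeast counterpart is part of the movable jaw of the head, read 3109 and 3330 under ncRNA-a7 siRNA, 4615 and 3394 under Snai1 siRNA and 3796 and 4224 under control siRNA. On the normalized log2 scale MED20 was 11.99 and 11.99 under Snai1 siRNA. It differed from control by -0.22 (-0.47 to 0.04) under ncRNA-a7 siRNA and 0.12 (-0.13 to 0.38) under Snai1 siRNA, and between the siRNAs by -0.34 (-0.60 to -0.09, adjusted p = 0.0999), which passed in the same 4 settings (adjusted p from 0.0246 to 0.0383).

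The other tested head subunits, MED8, MED11 and MED17, ran from -0.24 (MED8) to 0.23 (MED11) under ncRNA-a7 siRNA and from -0.16 (MED17) to 0.01 (MED11) under Snai1 siRNA. MED17, around which the head is built, had the widest interval of any subunit, 0.37 log2 units to each side. Its probe was dim, reading 139 to 191 at percentiles 37.5 to 67.0, a range that overlaps that of the probes below the filter. The 3 MED8 probes, all above the filter, differed from control by -0.24, -0.22 and -0.17 under ncRNA-a7 siRNA and by -0.06, -0.06 and -0.40 under Snai1 siRNA. The 95% intervals of all 28 subunits lay within 1 log2 unit of 0 under ncRNA-a7 siRNA, and those of 27 did under Snai1 siRNA, the exception being CCNC.

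Promoters of 3 of the 4 called subunits, all but MED30, are shown because SNAI1 is known to bind the E-box CAGGTG, and motif matches there can be read beside the differences above. They are the 250 bases before the annotated start, 5′ to 3′ on the strand of the gene, from RefSeq's annotation of GRCh38.p14. Capitals mark the E-box CAGGTG, the CCAAT box with letters CCAAT, the GC box with letters GGGCGG and the TATA box with letters TATAAA, each searched on both strands. CCNC has 2 starts there, and the one farther upstream is shown. The window of its other start held 0 matches to each of these motifs.
CCNC promoter, chr6:99568815-99569064, minus strand: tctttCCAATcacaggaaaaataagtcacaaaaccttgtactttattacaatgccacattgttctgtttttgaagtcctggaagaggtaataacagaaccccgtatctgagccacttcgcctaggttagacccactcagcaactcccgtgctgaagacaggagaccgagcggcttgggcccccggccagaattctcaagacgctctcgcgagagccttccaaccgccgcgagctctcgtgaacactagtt
MED9 promoter, chr17:17476750-17476999, plus strand: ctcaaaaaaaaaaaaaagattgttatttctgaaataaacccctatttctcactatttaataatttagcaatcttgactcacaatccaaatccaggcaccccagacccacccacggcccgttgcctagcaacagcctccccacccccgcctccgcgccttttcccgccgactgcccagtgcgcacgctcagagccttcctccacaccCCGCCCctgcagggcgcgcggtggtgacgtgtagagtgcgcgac
MED29 promoter, chr19:39391128-39391377, plus strand: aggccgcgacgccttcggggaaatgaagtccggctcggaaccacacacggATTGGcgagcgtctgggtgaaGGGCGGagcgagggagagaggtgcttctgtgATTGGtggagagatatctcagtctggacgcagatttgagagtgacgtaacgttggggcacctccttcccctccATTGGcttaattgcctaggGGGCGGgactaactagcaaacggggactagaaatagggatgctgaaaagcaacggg
None of these windows held CAGGTG, which 2 of the 25 Mediator genes in the table held at some start, MED4 and MED15, beside 20.6% of all 27305 genes in it. MED29 held 3 CCAAT boxes and 2 GC boxes, the CCNC window held 1 CCAAT box, and the MED9 window held 1 GC box. Of the 25 Mediator genes 10 held a CCAAT box, 16 a GC box and 2 a TATA box, beside 37.0%, 46.2% and 13.0% of all genes. A match is a description of letters, and its absence from these windows says nothing about binding elsewhere.

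Other parts of the transcription machinery were read from the same fit. With ncRNA-a7 siRNA 4 of 18 tested general transcription factors fell and 0 rose (median log2 difference -0.21), beside 4.16% of all features called lower. That share was not matched for signal: among features with a probe above the 75th percentile, 13.5% were called lower. GTF2H1, a TFIIH subunit, was 1.78-fold lower (limma adjusted p = 0.00148, held in 16 of 16 alternatives). GTF2E1, of TFIIE, was 1.75-fold lower (adjusted p = 0.00304), which did not pass once control siRNA replicate 1 was left out (log2 difference -0.65, adjusted p = 0.054). GTF2H3, also of TFIIH, was 1.41-fold lower (adjusted p = 0.0272), which did not pass with control siRNA replicate 1 (-0.36, adjusted p = 0.236) or either ncRNA-a7 siRNA array left out and kept its call in 10 of 16 alternatives. The fourth, named after its value was seen, was CDK7, the TFIIH kinase, 1.35-fold lower (adjusted p = 0.0449), which kept its call in 5 of 16 alternatives and lost it when any 1 of the 6 arrays was left out (highest adjusted p = 0.276).

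With Snai1 siRNA 5 of 18 tested general transcription factors fell and 0 rose (median -0.13), beside 4.28% of all features called lower. This share was not matched for signal either, and above the 75th percentile 13.0% of features were called lower. GTF2H3 was lower by a log2 difference of -0.59 (limma adjusted p = 0.0124), GTF2F1, of TFIIF, 1.40-fold (adjusted p = 0.0178) and GTF2A2, of TFIIA, 1.39-fold (adjusted p = 0.022). GTF2E1 (log2 difference -0.55) and TBP, the TATA-binding protein (-0.45), named after their values were seen, also fell. None of the 5 passed once either Snai1 siRNA array or control siRNA replicate 1 was left out, with adjusted p from 0.0539 to 0.23, and GTF2F1, GTF2A2 and TBP did not pass without control siRNA replicate 2 either (highest adjusted p = 0.161). Of 16 alternatives the calls held in 12 for GTF2H3, 11 for GTF2E1, 10 for GTF2F1, 10 for GTF2A2 and 9 for TBP. GTF2H1 was also lower under ncRNA-a7 siRNA than under Snai1 siRNA, by 1.66-fold (adjusted p = 0.00515, held in 16 of 16 alternatives).

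Of 12 tested RNA polymerase II subunits 0 were called against control with either siRNA. Their median log2 difference was -0.15 under ncRNA-a7 siRNA and 0.05 under Snai1 siRNA. At an unadjusted limma p under 0.05 there were 4 under ncRNA-a7 siRNA and 2 under Snai1 siRNA. For this list and those below, 9.94% of all features were called under ncRNA-a7 siRNA and 9.16% under Snai1 siRNA, not matched for signal. At an unadjusted limma p under 0.05 these shares of all features were 24.3% and 23.2%. POLR2A, the catalytic subunit, was 2.03-fold lower under ncRNA-a7 siRNA than under Snai1 siRNA (limma adjusted p = 0.0129), a call lost without Snai1 siRNA replicate 2 (log2 difference -0.96, adjusted p = 0.0903) or ncRNA-a7 siRNA replicate 2 (-0.74, adjusted p = 0.0942), with an offset of 16 (adjusted p = 0.0742) and with the trended prior (0.0547). Of 14 TFIID subunits 0 were called under ncRNA-a7 siRNA (4 at an unadjusted p under 0.05, median -0.17) and TAF7 rose under Snai1 siRNA (log2 difference 0.44, adjusted p = 0.0339, median of the list -0.12). That call was lost when any 1 of the Snai1 siRNA or control arrays was left out (highest adjusted p = 0.219), and held in 9 of 16 alternatives.

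Of 20 tested pausing and elongation factors TCEA1 fell under ncRNA-a7 siRNA (1.59-fold, limma adjusted p = 0.0103, median of the list -0.12). SUPT4H1 (log2 difference -0.49, adjusted p = 0.0237) and AFF4 (-0.51, adjusted p = 0.0306) fell under Snai1 siRNA (median -0.09). The calls were 5% of the list under ncRNA-a7 siRNA, beside 9.94% of all features, and 10% under Snai1 siRNA, beside 9.16%. The TCEA1 call was lost without control siRNA replicate 1 (-0.47, adjusted p = 0.126) or either ncRNA-a7 siRNA array, and those of SUPT4H1 and AFF4 when any 1 of the Snai1 siRNA or control arrays was left out (highest adjusted p = 0.192). Of 16 alternatives the calls held in 12 for TCEA1, 10 for SUPT4H1 and 10 for AFF4. Cohesin works with Mediator at enhancers. Of 9 tested cohesin and loader genes 0 were called under ncRNA-a7 siRNA against control, beside 9.94% of all features. At an unadjusted limma p under 0.05 there were 2, beside 24.3% of all features. Under Snai1 siRNA and between the siRNAs 11.1% of the list was called, beside 9.16% and 8.11% of all features. That was STAG2, which fell under Snai1 siRNA (1.54-fold, limma adjusted p = 0.0103) and was 1.67-fold higher under ncRNA-a7 siRNA than under Snai1 siRNA (adjusted p = 0.00581). With the mean of the STAG2 probes these differences were -0.30 (adjusted p = 0.19) and 0.27 (adjusted p = 0.254). Without Snai1 siRNA replicate 2 they were -0.57 (adjusted p = 0.0839) and 0.69 (adjusted p = 0.06), and the first was also lost without either control array.

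**Figure D4:**
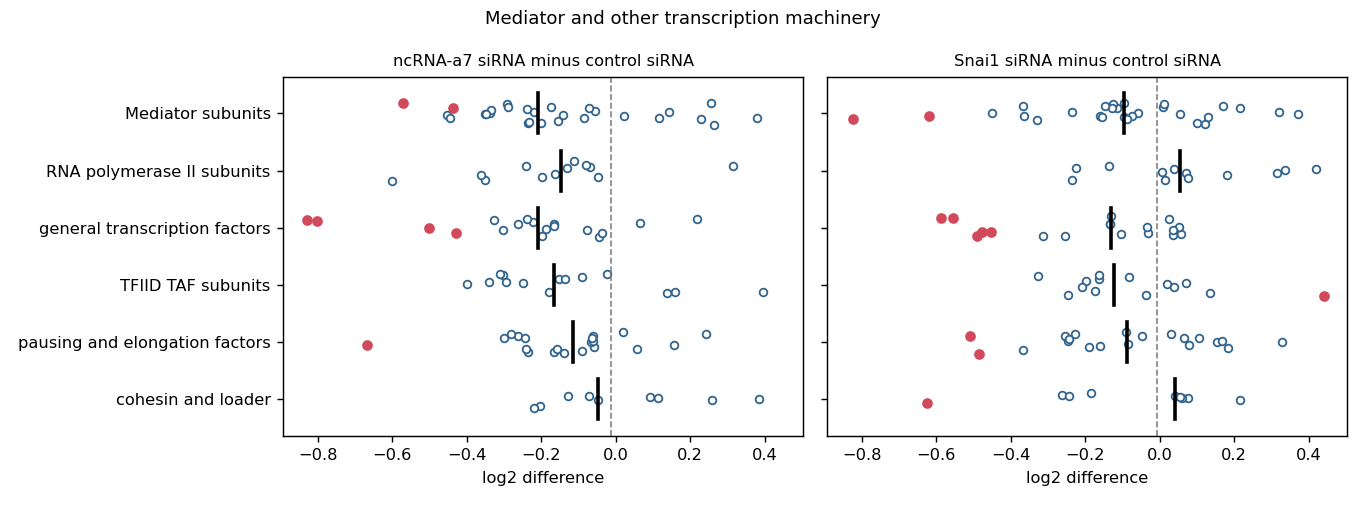
Log2 difference (x axis, log2 units) of each tested gene of 6 lists (y axis), for ncRNA-a7 siRNA minus control and Snai1 siRNA minus control. Filled points passed the test, black bars are list medians and the dashed line is the median of all 19730 features; the general transcription factors hold 4 filled points on the left and 5 on the right, all below 0.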

How the data were processed

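Per the file headers, the deposited table of scanner output is non-normalized, and its values are linear intensity, 1 for each probe on each array. The deposited series matrix holds the authors' intensity values of the same arrays. Its values were those of the scanner output multiplied, for each array, by a constant from 0.783 to 1, which gives every array a mean of 715 and medians from 120 to 147.5. It carries no log scale or centring. The software used for both tables was not given in the sources used here.

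Of 48701 probes 28044 had 1 gene symbol, 13 several and 20644 none in the platform annotation. Gene IDs of 28005 were found in RefSeq's table of GRCh38.p14, and 0 symbols changed. Signals were corrected with limma's normexp (offset 50), quantile normalized and put on the log2 scale, so fold changes of dim genes are understated. Probes above the median were kept (24350), the brightest probe represented a gene, and 19730 features (13057 named genes, 6673 unnamed probes) entered 1 limma 3.58.1 fit (R 4.3.3) of all 6 arrays, with 3 residual and 8.90 prior degrees of freedom. Each SE is limma's, from a spread pooled over the 3 groups and drawn toward that of all features. The typical SE of a log2 difference was 0.13. Alternatives changed the scaling (by medians, by cyclic loess, or as the authors scaled the arrays), the background step (none, or a smaller offset of 16), the filter (none, or the 75th percentile), the probes of a gene (their mean) and the variance prior (trended and robust). Others added the replicate block or left out each array in turn. They kept these features and probes unless they concerned them. The fit was tested on simulated data.

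Values of every array are given for called subunits, the 2 subunits of each module that differed most, and the kinase module. Of the other machinery lists up to 3 called genes with the smallest p per comparison are named by this rule. CDK7, GTF2E1 under Snai1 siRNA and TBP fall outside it and were named after their values were seen. The members and lists were chosen with earlier results of these data known.

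Arrays of the same replicate number did not deviate together (correlations of deviations from the group means from -0.07 to 0.01), so the numbers were not taken as pairs.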

Additional observations from a re-analysis of the deposited data

How the results depend on the processing

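Features called over the whole table depended on the settings. Under ncRNA-a7 siRNA against control, 1962 became 1018 with an offset of 16, 922 with median scaling and 822 with no filter. Under Snai1 siRNA against control, 1807 became 966, 1067 and 820 in these settings and 2718 with a trended and robust prior. Between the siRNAs, 1601 became 559, 699 and 498, and 2492 without background correction, 2498 over the probes above the 75th percentile and 2574 with the trended prior. Median scaling left 33.7% of the calls higher under Snai1 siRNA, beside 53.3%, and 70.5% between the siRNAs, beside 58.4%. Leaving out 1 array gave 586 to 1699, 498 to 1934 and 397 to 1080 features, and 0 to 3, 1 to 2 and 1 to 3 subunits, for ncRNA-a7 siRNA against control, Snai1 siRNA against control and between the siRNAs. Called subunits under ncRNA-a7 siRNA were 7 without background correction or with the trended prior, 6 with the authors' scaled values, 9 above the 75th percentile, and 1 with an offset of 16, median scaling or no filter. As shares these were 25% beside 14.6% and 14.9% of all features, 21.4% beside 11.9%, and 37.5% of the 24 subunits tested there beside 28.3%. The 1 subunit called with an offset of 16, median scaling or no filter was 3.57%, beside 5.16%, 4.67% and 2.08% of all features. Under Snai1 siRNA they were 6 without background correction or with the trended prior and 7 above the 75th percentile, or 21.4% beside 13.5% and 13.8% of features, and 29.2% of 24 beside 26.3%. Between the siRNAs they were 5 without background correction or with the authors' values, 6 above the 75th percentile or with the trended prior, and 1 with an offset of 16 or no filter. The shares were 17.9% beside 12.6% and 10.1% of features, 25% of 24 beside 25.1%, and 21.4% beside 13.0%. The 1 subunit called with an offset of 16 or no filter was 3.57%, beside 2.83% and 1.26% of features. With the replicate block the features called were 1730 under ncRNA-a7 siRNA, 1664 under Snai1 siRNA and 1433 between the siRNAs, and the subunits 2, 2 and 3, so no count of subunits changed. Log2 differences that changed sign belonged to subunits not called. With median scaling they were MED19 (-0.044) under ncRNA-a7 siRNA, and MED11 (-0.055), MED20 (-0.0044), MED14 (-0.036) and MED23 (-0.084) under Snai1 siRNA. With the authors' values it was MED17 (0.0027) under Snai1 siRNA. With the mean of the probes they were MED14 (0.17) under ncRNA-a7 siRNA, MED23 (-0.097) under Snai1 siRNA, and MED7 (0.045), MED14 (0.096) and MED16 (0.026) between the siRNAs. Leaving out 1 array, ranges that crossed 0 under ncRNA-a7 siRNA were -0.22 to 0.10 for MED14, -0.16 to 0.012 for MED15 and -0.060 to 0.10 for MED19. Under Snai1 siRNA they were -0.072 to 0.090 for MED11, -0.28 to 0.099 for MED13L, -0.10 to 0.21 for MED14, -0.45 to 0.13 for MED17, -0.25 to 0.059 for MED21, -0.087 to 0.11 for MED23, -0.22 to 0.022 for MED28 and -0.19 to 0.045 for MED7. Between the siRNAs they were -0.30 to 0.057 for MED1, -0.40 to 0.0017 for MED13L, -0.18 to 0.047 for MED16 and -0.31 to 0.28 for MED17. Where an array left out leaves 1 in a group, that array is assumed to vary like the others. The cause of these changes was not tested. Signals near background limit MED12L, MED18 and MED31, and also MED17, whose tested probe read 139 to 191.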
